A study of Oryza sativa Japonica Group with 4 samples.

Results

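Late embryogenesis abundant (LEA) proteins and dehydrins were followed through the developing endosperm of rice (Nipponbare) at high and at control temperature. Every transcript model whose description in the deposited table holds the words late embryogenesis abundant or dehydrin was taken, which gave 42 of the 67393 transcript models and 34 of the 56797 genes. Endosperm was sequenced as 2 libraries from plants moved to high temperature (35°C by day, 28°C by night) and 2 libraries from plants that stayed at control temperature (28°C by day, 22°C by night). The move was made 5 days after pollination, and all 4 libraries were sampled after 5 days of treatment with 12 h of light and 12 h of dark. No source used here says whether the replicates came from separate plants, so every p-value measures only the spread between these libraries. The methods name fresh seeds as what was sampled and endosperm as the source of the RNA.

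LEA proteins are small hydrophilic proteins that accumulate in seeds as these mature and dry, most of all in the embryo and the aleurone, and in leaves and roots under drought, salt or cold. They are thought to protect membranes and other proteins when water is lost. Dehydrins are LEA proteins with a conserved lysine-rich segment, and abscisic acid, the hormone of seed maturation, induces many of them. Of the 42 transcripts, 8 are described as dehydrin, 4 as LEA group 1, 7 as LEA group 3 and 8 as LEA D-34, a name taken from a cotton seed protein. A further transcript is described as LEA protein 1, another as LEA domain-containing, and 13 carry no class. The table writes "group" as "grodown" throughout, and numbering schemes for LEA groups differ, so the group numbers are used only as the descriptions give them. The genes lie on all 12 chromosomes, as read from their IDs, and 5 of the 8 dehydrin genes lie on chromosome 11.

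Reads summed to 7813601 and 6395533 in high temperature replicates 1 and 2, and to 11492692 and 8022185 in control replicates 1 and 2. The libraries stood apart within each temperature. A pair of transcripts, LOC_Os09g00999.1 (conserved hypothetical protein) and LOC_Os09g01000.1 (expressed protein), took 35.2% and 10.05% of the reads at high temperature and 8.51% and 25.9% in the controls. Levels are therefore given as CPM, a count relative to the reads of its library, scaled between libraries by TMM, a trimmed mean of ratios that is little moved by a few very abundant transcripts. The TMM factors were 0.891 and 1.12 at high temperature and 1.32 and 0.756 in the controls. Storage proteins that mark starchy endosperm were abundant in all 4 libraries. The 46 glutelin and prolamin transcripts summed to 265293 and 358679 CPM at high temperature and to 280985 and 491449 CPM in the controls, and none was without reads.

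The summed level of the LEA and dehydrin transcripts differed more within each temperature than between the temperatures. It was 1989 CPM in high temperature replicate 1 and 628 CPM in high temperature replicate 2, against 431 CPM in control replicate 1 and 2650 CPM in control replicate 2. Thus the highest and the lowest library were both controls, with the high temperature libraries between them. The mean was 1308 ± 962 CPM at high temperature and 1540.5 ± 1569 CPM in the controls (SD, n = 2 each), a ratio of 0.849. An exact permutation test over the 4 libraries, two-sided, gave p = 1.0, and with 2 libraries against 2 it cannot go below 0.333. Control replicate 2 held 6.15 times the level of control replicate 1, and high temperature replicate 1 held 3.17 times the level of high temperature replicate 2. Without any scaling, LEA and dehydrin reads were 0.177% and 0.0706% of all reads at high temperature and 0.0569% and 0.200% in the controls, and these ratios were then 3.52 and 2.51. In a bulk library, fewer cells of a type and less RNA per cell cannot be told apart.

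**Figure D1:**
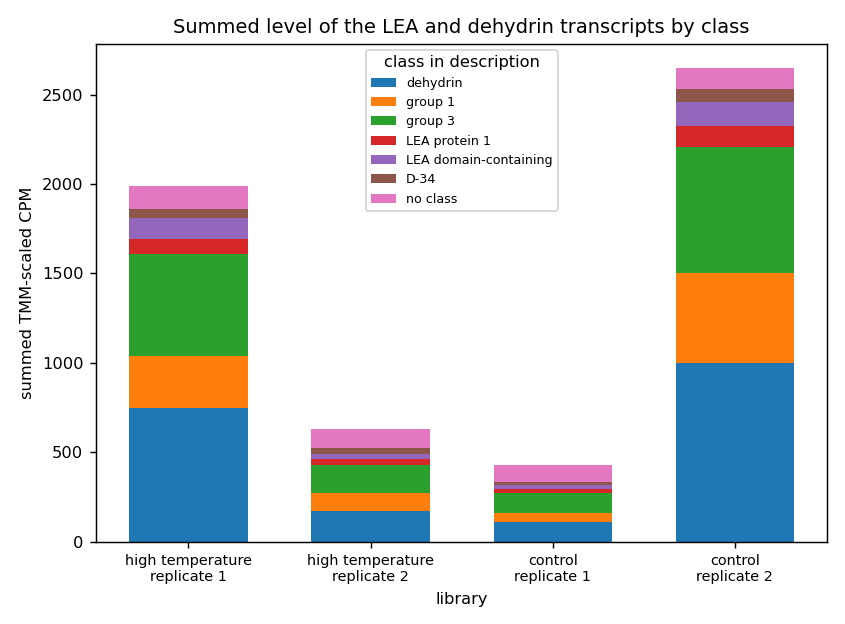
Summed TMM-scaled CPM (y axis) of all 42 LEA and dehydrin transcripts in each of the 4 libraries (x axis), stacked by the class in the description. High temperature replicate 1 (1989 CPM) and control replicate 2 (2650 CPM) stand above high temperature replicate 2 (628 CPM) and control replicate 1 (431 CPM).

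The libraries with the higher sums were the same for every class on the TMM scale. Dehydrins summed to 745 and 173 CPM at high temperature and to 112 and 1001 CPM in the controls. Group 1 transcripts summed to 292 and 97.2 CPM at high temperature and to 49.1 and 501 CPM in the controls. Group 3 transcripts had 572 and 157 CPM at high temperature, against 109 and 702 CPM in the controls. In these 3 classes, control replicate 2 was 6.45 to 10.2 times control replicate 1, and high temperature replicate 1 was 3.001 to 4.30 times replicate 2. The D-34 transcripts showed the same order with smaller differences, at 49.7 and 31.8 CPM at high temperature and 19.7 and 70.4 CPM in the controls. The transcripts with no class had the same order with the smallest ratios, at 129 and 106 CPM at high temperature and 96.2 and 119 CPM in the controls. Their ratios were 1.21 between the high temperature replicates and 1.24 between the controls. On library totals both of these orders turn, while those of the other classes stay. Dehydrins made up 37.5% and 27.6% of the summed level at high temperature, and 25.99% and 37.8% in the controls.

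Of the 42 transcripts, 34 transcripts of 26 genes passed the filter of at least 1 CPM in at least 2 libraries. Of the other 8, 3 had no read in any library and 5 had at most 16 reads in any library. The temperature difference and the differences between replicates were then set side by side for each transcript on the log2 CPM scale. The median size of the difference between the temperature means was 0.22 over the 34 transcripts, against 0.29 over all 27358 transcripts that passed the filter. The median size of the difference between the high temperature replicates was 1.51, against 0.36 over all transcripts, and that between the control replicates was 2.53, against 0.39. The LEA and dehydrin transcripts thus had a difference between temperature means of ordinary size and replicate differences well above those of most transcripts. These means are imprecise, with a median standard error of the log2 fold change of 0.76, against 0.37 over all transcripts. The size of a temperature effect is therefore not settled by them. For 31 of the 34 (background 41.6%), both replicate differences were larger than the temperature difference, and for 0 of the 34 (background 24.7%) the temperature difference was larger than both. Of the squared deviations of a transcript over the 4 libraries, the temperature means accounted for a median of 2.14%, against 28.0% over all transcripts.

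**Figure D2:**
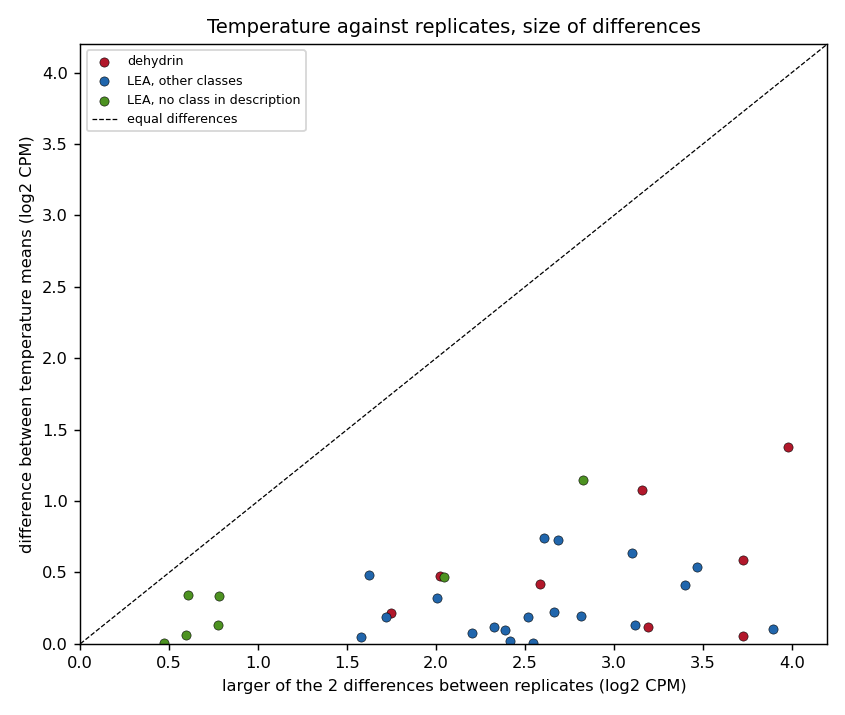
Size of the difference between the temperature means (y axis, log2 CPM) against the larger of the 2 differences between replicates (x axis, log2 CPM) for the 34 LEA and dehydrin transcripts that passed the filter, coloured by class. All 34 points lie below the dashed line of equal differences.

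The direction of the replicate differences was shared. High temperature replicate 1 lay above replicate 2 for all 34 transcripts (background 50.8%), and control replicate 2 lay above control replicate 1 for 30 of the 34 (background 50.0%). This pattern of both orders held for 30 of 34, against 31.0% of all transcripts, and the reverse of both held for 0, against 30.3%. Both differences exceeded 1 on the log2 scale for 22 of the 34, against 2.13% of all transcripts, so that these 22 were among only 584 such transcripts in the table. The control replicates differed by over 2 on the log2 scale for 24 of the 34 (background 1.7%), while the temperature means differed by over 1 for 3 (background 5.26%). Control replicate 2 was the highest of the 4 libraries for 23 transcripts and high temperature replicate 1 for 8, and control replicate 1 was the lowest for 26. Transcript models of a gene share reads. With the reads of each gene summed, the pattern held for 24 of 26 genes, against 31.8% of all genes. With library totals in place of TMM it held for 27 of the 34 transcripts, against 6.97% of all transcripts. LOC_Os01g21250.1 and LOC_Os03g53610.1 reached 1 CPM only in high temperature replicate 1 and control replicate 2. Passing the filter thus fixed their order, and they are included in these counts.

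**Figure D3:**
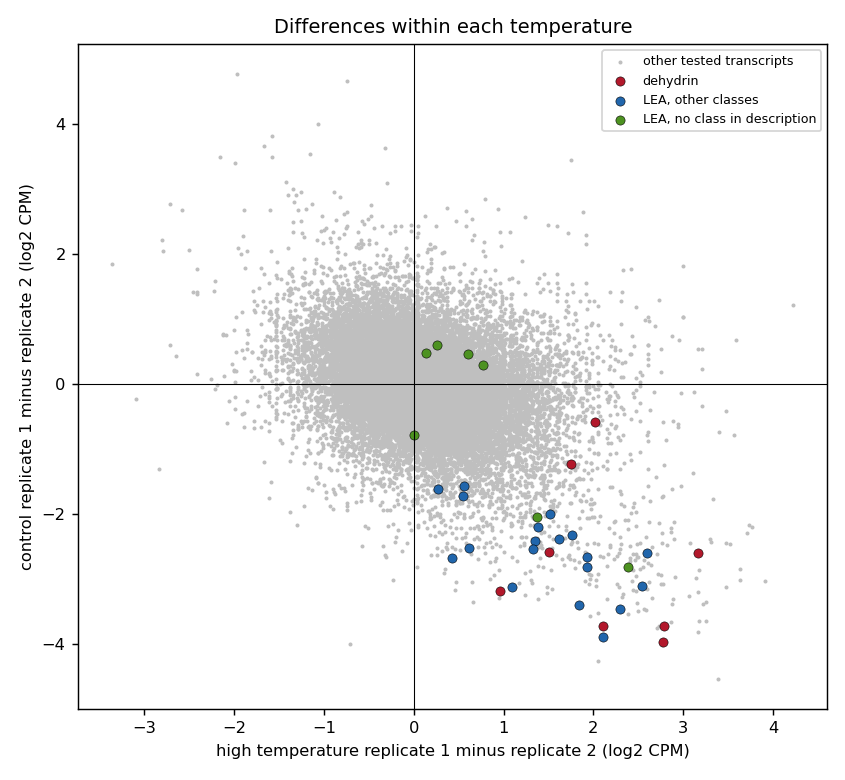
Difference between the control replicates (y axis, replicate 1 minus replicate 2, log2 CPM) against the difference between the high temperature replicates (x axis, replicate 1 minus replicate 2, log2 CPM) for each of the 27358 transcripts that passed the filter. LEA and dehydrin transcripts are the coloured points, and 30 of the 34 lie in the lower right part, below and to the right of both zero lines.

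Among the dehydrins, LOC_Os11g26790.1 (1207 bases) had the highest level per length of all 42 transcripts, with a mean of 228 TMM-scaled RPKM (CPM per kilobase of transcript). It had 408 and 59.1 CPM at high temperature and 44.3 and 588 CPM in the controls. Control replicate 2 was 13.3 times control replicate 1, and high temperature replicate 1 was 6.90 times replicate 2, while the ratio of the temperature means was 0.738. This transcript alone held 20.5% and 9.42% of the summed LEA and dehydrin level at high temperature and 10.3% and 22.2% in the controls. For temperature its log2 fold change was -0.44 with a standard error of 1.11, and its Benjamini-Hochberg adjusted p in edgeR's quasi-likelihood test was 0.964.

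LOC_Os11g26790 stands in a run of 4 dehydrin genes whose IDs follow each other on chromosome 11, broken only by a gene described as a transposon protein. LOC_Os11g26780.1 had 33.0 and 7.51 CPM at high temperature and 2.70 and 38.6 CPM in the controls. LOC_Os11g26760.1 had 16.5 and 2.22 CPM at high temperature and 0.396 and 9.56 CPM in the controls, from as few as 6 reads in control replicate 1. Of the 34 transcripts it showed the largest difference between control replicates, 3.98 on the log2 scale or 24.2 times in CPM. LOC_Os11g26750.1 had 10.5 and 0.973 CPM at high temperature and 0.462 and 3.96 CPM in the controls, with 7 reads in each of the lower libraries. It showed the largest difference between high temperature replicates, 3.16 on the log2 scale or 10.8 times in CPM. In each of these 4 genes the high and low values of the temperatures interleaved. Only reads that mapped to 1 place were counted, so where these genes are close copies their shared reads would be left out, and the levels of single genes in this run are uncertain. Together they had 468 and 69.8 CPM at high temperature and 47.9 and 640 CPM in the controls.

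The other dehydrins were less alike. LOC_Os11g26570.1, also on chromosome 11, had 76.6 and 39.2 CPM at high temperature and 19.6 and 180.5 CPM in the controls, so that the controls differed 9.21 times and the high temperature replicates 1.95 times. LOC_Os01g50700.1, described as a dehydrin family protein, had 127 and 44.3 CPM at high temperature and 22.8 and 138 CPM in the controls. LOC_Os03g45280.1 had 35.1 and 10.3 CPM at high temperature and 10.6 and 25.2 CPM in the controls. LOC_Os02g44870.1 had 39.1 and 9.45 CPM at high temperature and 11.2 and 17.0 CPM in the controls. In these last 2 genes the larger difference was between the high temperature replicates, 3.41 and 4.13 times, and not between the controls, 2.38 and 1.51 times. For 29 of the 34 transcripts the larger difference was between the controls.

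**Figure D4:**
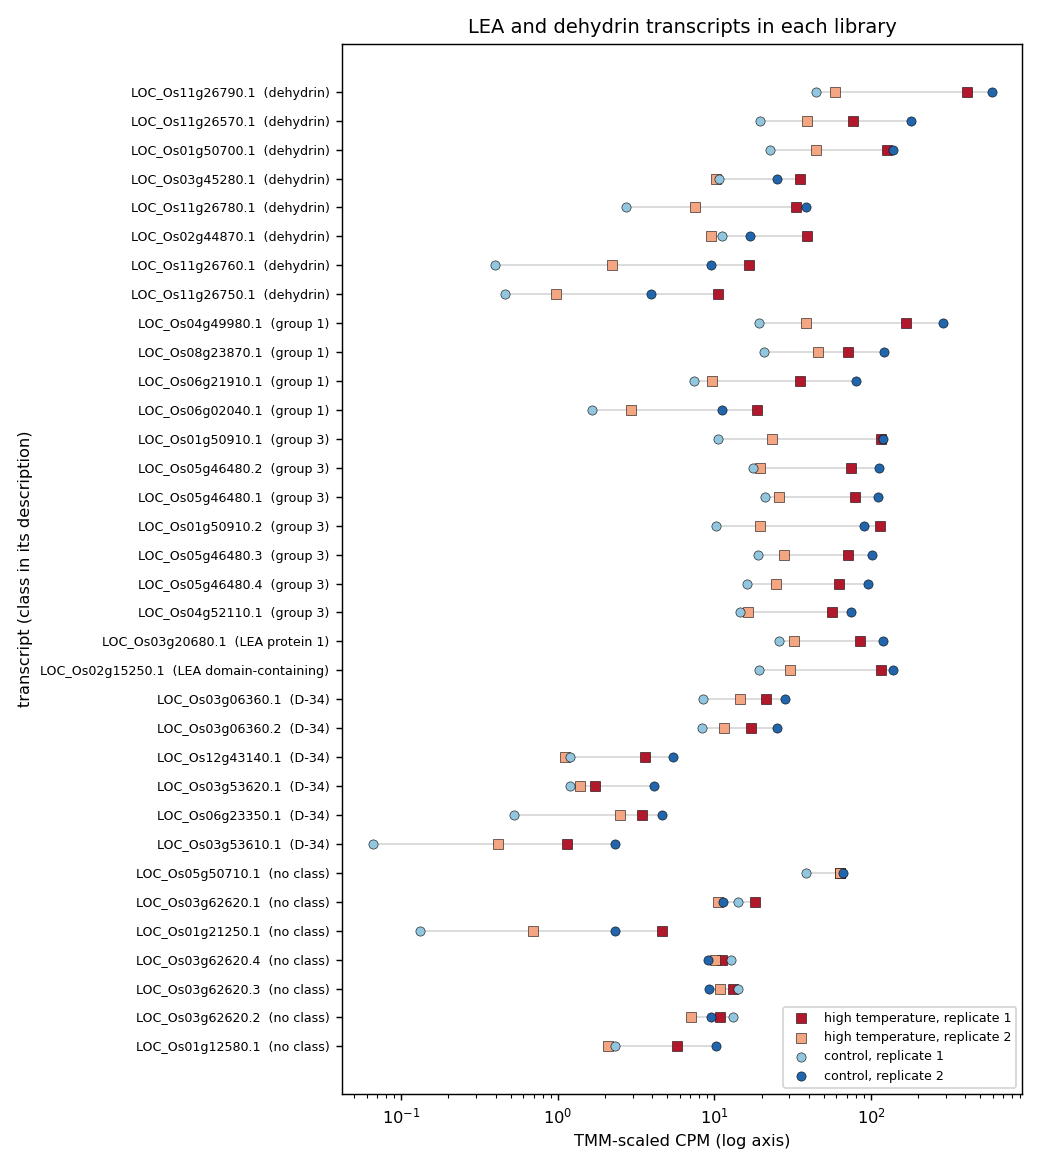
TMM-scaled CPM (x axis, log axis) of each LEA and dehydrin transcript that passed the filter (y axis, with the class in its description), with squares for the high temperature libraries and circles for the controls. For 30 of the 34 transcripts the dark symbols, high temperature replicate 1 and control replicate 2, lie to the right of both light symbols, and for all 34 the ranges of the temperatures overlap.

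The 4 group 1 transcripts come from 4 genes, and all 4 showed the pattern. LOC_Os04g49980.1 had 167 and 38.6 CPM at high temperature and 19.3 and 289 CPM in the controls. With a mean of 166 RPKM it was the next most abundant per length after LOC_Os11g26790.1. LOC_Os08g23870.1 had 70.8 and 46.0 CPM at high temperature and 20.8 and 120.5 CPM in the controls. Here the difference between the high temperature replicates was only 1.54 times, while the controls differed 5.78 times. LOC_Os06g21910.1 had 35.1 and 9.59 CPM at high temperature and 7.39 and 80.1 CPM in the controls. It had the lowest log2 fold change for temperature of the 34, -0.95 (standard error 0.95, adjusted p = 0.900, edgeR). LOC_Os06g02040.1 had 18.8 and 2.92 CPM at high temperature and 1.65 and 11.2 CPM in the controls, and its log2 fold change was 0.86 (standard error 0.94, adjusted p = 0.911, edgeR). The group 1 genes thus shared the replicate pattern and took either sign for temperature.

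The 7 group 3 transcripts come from 3 genes. LOC_Os01g50910.1 had 115 and 23.2 CPM at high temperature and 10.6 and 119 CPM in the controls. The other model of this gene, LOC_Os01g50910.2, had 114 and 19.5 CPM at high temperature and 10.2 and 89.5 CPM in the controls. The 4 models of LOC_Os05g46480 lay at 62.1 to 79.4 and 19.5 to 27.8 CPM in high temperature replicates 1 and 2, and at 16.1 to 21.0 and 94.9 to 113 CPM in control replicates 1 and 2. LOC_Os04g52110.1 had 56.2 and 16.4 CPM at high temperature and 14.6 and 74.2 CPM in the controls. In all 7, both lower libraries were the same, high temperature replicate 2 and control replicate 1. LOC_Os03g20680.1, described as LEA protein 1, had 85.2 and 32.4 CPM at high temperature and 25.7 and 119 CPM in the controls. LOC_Os02g15250.1, the LEA domain-containing transcript, had 116 and 30.2 CPM at high temperature and 19.3 and 137 CPM in the controls.

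The D-34 transcripts were of low abundance. LOC_Os03g06360.1 had 21.4 and 14.6 CPM at high temperature and 8.44 and 28.3 CPM in the controls, and LOC_Os03g06360.2 had 17.1 and 11.5 CPM, against 8.31 and 25.2 CPM. LOC_Os06g23350.1 had 3.45 and 2.50 CPM at high temperature and 0.528 and 4.61 CPM in the controls. LOC_Os03g53620.1 had 1.72 and 1.39 CPM at high temperature and 1.19 and 4.12 CPM in the controls, from 10 to 25 reads a library. LOC_Os12g43140.1 and LOC_Os03g53610.1, the other D-34 transcripts that passed the filter, had at most 33 reads in any library. All 6 showed the pattern, and their median difference between the high temperature replicates was 0.55 on the log2 scale, against 2.06 for the dehydrins. LOC_Os03g53610.1 reached 1 CPM only in high temperature replicate 1 and control replicate 2, so passing the filter fixed its order.

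On the TMM scale, the transcripts that did not show the pattern had no class in their descriptions. With library totals the dehydrin LOC_Os02g44870.1 and the D-34 transcript LOC_Os03g53620.1 did not show it either. LOC_Os03g62620, with 4 models, was the only gene of which no model showed the pattern. Its models lay at 10.9 to 18.2 and 7.09 to 10.8 CPM in high temperature replicates 1 and 2, and at 12.7 to 14.0 and 9.07 to 11.4 CPM in control replicates 1 and 2. LOC_Os05g50710.1 had 63.6 and 63.5 CPM at high temperature and 38.4 and 66.3 CPM in the controls. These were ratios of 1.002 between the high temperature replicates and of 1.72 between the controls. The order of its high temperature replicates turned with relative log expression factors or library totals in place of TMM. With library totals the order of its controls turned too. LOC_Os01g12580.1 had 5.75 and 2.09 CPM at high temperature and 2.31 and 10.2 CPM in the controls. LOC_Os01g21250.1 had 4.60 and 0.695 CPM at high temperature and 0.132 and 2.31 CPM in the controls, from 2 reads in control replicate 1. These last 2 showed the same order as the dehydrins. LOC_Os01g21250.1 reached 1 CPM only in high temperature replicate 1 and control replicate 2, so passing the filter fixed its order.

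Temperature was then tested on the counts with edgeR's quasi-likelihood test over all 27358 transcripts. Of the 34 LEA and dehydrin transcripts, 0 had an adjusted p under 0.05 (background 0.0%). At an unadjusted p under 0.05 there were also 0, against 4.15% of all transcripts higher and 2.79% lower at high temperature. The lowest unadjusted p was 0.176 and the adjusted values ran from 0.838 to 0.999. DESeq2 called 0 of the 34 (background 0.212%), and 0 at an unadjusted p under 0.05 (background 3.26%). With every transcript that had a read kept in the fit, edgeR called 1, LOC_Os11g26750.1 (background 0.822%), and 8 had an unadjusted p under 0.05 (background 6.99%). Its log2 fold change hardly moved, from 1.62 to 1.60, but its standard error fell from 1.09 to 0.43. That of LOC_Os11g26790.1 fell from 1.11 to 0.41. These calls thus rest on smaller standard errors, not on larger differences. With the filter, the log2 fold changes ran from -0.95 to 1.62, with 14 of 34 above 0 (background 50.2%). Their median was -0.14, against 0.00 over all transcripts. Their standard errors had a median of 0.76, against 0.37, so a difference between the temperatures smaller than the differences between replicates was not detectable here. For no transcript did both high temperature libraries lie above both controls (background 19.1%), and for none did both lie below (background 17.7%), so that all 34 overlapped between the temperatures (background 63.2%). With library totals in place of TMM 1 transcript lay above, LOC_Os05g50710.1 (background 12.6%), and 1 below, LOC_Os03g53620.1 (background 9.08%). With no filter on low counts 1 lay above (background 15.9%) and 1 below (background 16.0%), neither with more than 16 reads in a library.

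The 3 highest fitted changes were at low counts. LOC_Os11g26750.1 stood at 1.62 (standard error 1.09) with an adjusted p of 0.838 in edgeR, and LOC_Os01g21250.1 at 1.45 (standard error 1.14) with an adjusted p of 0.856. LOC_Os11g26760.1 followed at 1.07 (standard error 1.18). Then came LOC_Os06g02040.1, given above, and LOC_Os02g44870.1 at 0.80 (standard error 0.58), with 68 reads or more in every library. At the other end, after LOC_Os06g21910.1, lay LOC_Os11g26570.1 at -0.78 (standard error 0.83), LOC_Os03g53620.1 at -0.64 (standard error 0.65), LOC_Os01g12580.1 at -0.59 (standard error 0.71) and LOC_Os04g49980.1 at -0.58 (standard error 1.05). Dehydrins had a median of 0.23 over 8 transcripts, group 1 of -0.42 over 4, group 3 of -0.28 over 7 and D-34 of -0.21 over 6.

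Single libraries decided the sign of these values. Without control replicate 2, edgeR called 10 of the 32 transcripts then tested (background 1.31%), all 10 higher at high temperature, 24 had an unadjusted p under 0.05 (background 11.6%), and the median log2 fold change of the group was 1.40. Among the 10 were 5 dehydrins: LOC_Os11g26790.1, LOC_Os11g26780.1, LOC_Os11g26760.1 and LOC_Os11g26750.1, with log2 fold changes of 2.40, 2.90, 4.52 and 3.59, and LOC_Os01g50700.1 with 1.91. Without control replicate 1 the median was -0.87 and 0 were called (background 0.163%), with 13 of 34 at an unadjusted p under 0.05 (background 7.38%). Without high temperature replicate 1 it was -1.07 and without high temperature replicate 2 it was 0.27, with 0 called in both (background 0.0%), and with 0 of 32 (background 4.13%) and 2 of 34 (background 4.31%) at an unadjusted p under 0.05. In each of these fits 1 temperature is represented by 1 library, which is assumed to vary like the others. Of the 22 transcripts named with a fold change and followed through these fits, 21 changed sign in at least 1 of them.

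**Figure D5:**
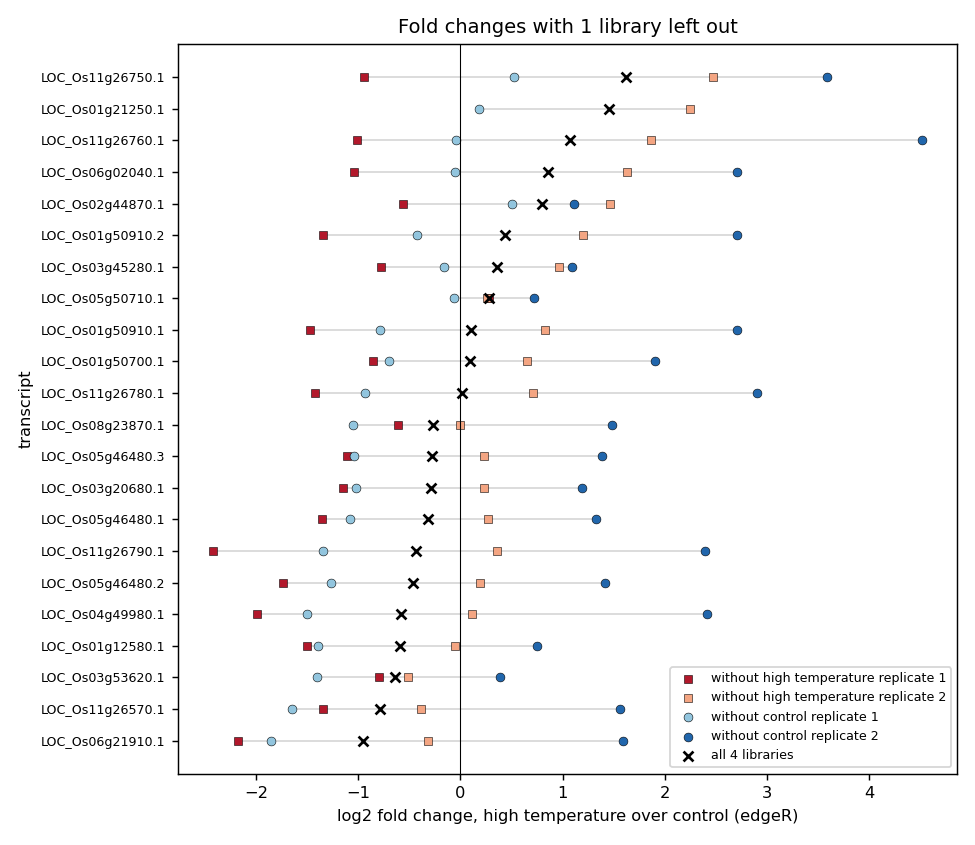
Log2 fold change for temperature (x axis, high temperature over control, edgeR) of 22 LEA and dehydrin transcripts (y axis) with all 4 libraries (crosses) and with each library left out in turn (coloured symbols). The values without control replicate 2 lie mostly to the right of 0, up to 4.52, and those without high temperature replicate 1 mostly to the left, down to -2.42, and LOC_Os01g21250.1 passed the filter in only part of the fits.

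The standing of these transcripts among all others followed the same libraries. Ranked by level per length over the 27358 transcripts, LOC_Os11g26790.1 was at rank 95 and 691 at high temperature and at rank 974 and 82 in the controls. LOC_Os04g49980.1 was at rank 134 and 683 at high temperature and at rank 1578 and 95 in the controls. Of the 34 transcripts, 10 and 0 were among the first 500 at high temperature, and 0 and 14 in the controls. The order of the transcripts among themselves changed less. Spearman's rho of their levels per length over the 34 transcripts, which share models and reads and are given as a description, ran from 0.825 to 0.937 between pairs of libraries. It was 0.882 between the high temperature replicates and 0.85 between the controls.

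Genes of abscisic acid and seed maturation had smaller median differences between replicates. A list of 29 transcripts of 18 genes was taken for abscisic acid synthesis, breakdown and signalling, among them zeaxanthin epoxidase, 9-cis-epoxycarotenoid dioxygenases, bZIP and B3 transcription factors, protein kinases, cytochrome P450s and a peroxiredoxin, as the table describes them. Of these, 22 passed the filter and 0 had an adjusted p under 0.05 for temperature (edgeR, background 0.0%). At an unadjusted p under 0.05, 0 were higher (background 4.15%) and 1 was lower (background 2.79%). The transcript below it was LOC_Os12g42280.1, described as a 9-cis-epoxycarotenoid dioxygenase, the class of enzyme that makes the first committed step to abscisic acid, with 1.72 and 1.11 CPM at high temperature and 3.50 and 6.92 CPM in the controls. Its log2 fold change was -1.82 (standard error 0.49, adjusted p = 0.542, edgeR). The pattern of the LEA transcripts was held by 14 of the 22 (background 31.0%), and its reverse by 2 (background 30.3%). Median differences were 0.12 between the high temperature replicates and -0.37 between the control replicates (replicate 1 minus replicate 2, log2). The peroxiredoxin, LOC_Os07g44430.1, had 199 and 156 CPM at high temperature and 182 and 285 CPM in the controls.

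Markers of other tissues of the grain shared the replicate differences of the LEA transcripts only in part. Oleosins and caleosins, proteins of the oil bodies of embryo and aleurone, had 23 transcripts, of which 19 passed the filter and 4 had no reads (LOC_Os02g30690.1, LOC_Os02g50150.1, LOC_Os06g14350.1 and LOC_Os06g14350.2). They summed to 1267 and 1362 CPM at high temperature and to 981 and 1662 CPM in the controls. On the TMM scale the controls thus differed 1.69 times in the direction of the LEA transcripts. The high temperature replicates differed 0.931 times, in the other direction. All marker sums here are on the TMM scale, with factors of 1.32 and 0.756 in the controls. Library totals in place of these factors took the LEA control ratio from 6.15 to 3.52. The same change turns the smaller control ratios of oleosins and caleosins and of photosynthesis. It leaves the glutelin and prolamin controls nearly level. The directions between the high temperature replicates stay the same for these lists. The pattern was held by 11 of the 19 (background 31.0%), and its reverse at both temperatures by 4 (background 30.3%). LOC_Os04g46200.1 and LOC_Os03g49190.1, oleosins that carried most of these sums, had 494 and 608 CPM and 348 and 432 CPM at high temperature, against 448 and 748 CPM and 321 and 477 CPM in the controls. Some other members followed the order of the LEA transcripts at both temperatures, and some the reverse. The caleosin LOC_Os04g43170.1 had 160.2 and 81.6 CPM at high temperature and 52.8 and 185 CPM in the controls, and the oleosin LOC_Os09g15520.1 had 26.7 and 14.5 CPM at high temperature and 7.32 and 31.3 CPM in the controls. Transcripts of photosynthesis, which mark the green pericarp, numbered 104, of which 3 had no reads and 88 passed the filter. They summed to 3294 and 1353 CPM at high temperature and to 1814 and 2362 CPM in the controls. The high temperature replicates differed 2.43 times, in the direction of the LEA transcripts, which library totals do not turn. The controls differed 1.30 times, in the direction of the LEA transcripts on the TMM scale only. On that scale 49 of the 88 held the pattern (background 31.0%) and 1 its reverse (background 30.3%). On the TMM scale the glutelin and prolamin sums differed 1.75 times between the controls and 0.740 times between the high temperature replicates. These were the directions of the oleosin and caleosin sums on that scale. The part of these tissues in the LEA differences was not tested, and neither was that of LOC_Os09g00999.1 and LOC_Os09g01000.1, whose share of the reads was high in the same libraries.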

How the data were processed

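For each of 4 poly(A) RNA-seq libraries the authors deposited raw counts by transcript model, made from reads that mapped to 1 place and overlapped exons. The aligner, build and annotation release are not given in the sources used here. NA counts were read as 0. The 4 columns headed RPKM were not used, and levels per length were computed from the counts. Members were found by the words in their descriptions. Members, lists and comparisons were chosen with earlier results of these data known.

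Temperature was tested with edgeR 4.0.16 in R 4.3.3 (TMM, quasi-likelihood, no replicate block, Benjamini-Hochberg over all transcripts that reached 1 CPM in 2 or more libraries). Standard errors are the log2 fold change divided by the root of F. The common dispersion was 0.0746. Differences between replicates used log2 CPM with a prior count of 2. DESeq2 1.42.0 and limma 3.58.1 on log2(RPKM + 1) were alternatives. The scripts were tested on simulated data. Transcripts named by rule were the 12 with the highest mean RPKM, the 5 with the highest and the 5 with the lowest log2 fold change, the 5 with the largest difference within each temperature, and all dehydrins. The others named complete their classes. The table gives no coordinates, and 0 of the 34 gene IDs matched the RefSeq gene table supplied, so no positions or sequences are given. The labels do not say whether replicate numbers pair the samples, so the main fit has no replicate block.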

Additional observations from a re-analysis of the deposited data

How the results depend on the processing

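With 2 libraries a temperature, 1 library decides most values. Leaving out each library in turn gave 0 to 10 called LEA and dehydrin transcripts (10 without control replicate 2), a median log2 fold change of -1.07 to 1.40 and a ratio of the summed level of 0.407 to 3.03. The log2 fold changes of single transcripts then ran over these ranges, each on both sides of 0: LOC_Os01g12580.1 -1.50 to 0.75, LOC_Os01g50700.1 -0.85 to 1.91, LOC_Os01g50910.1 -1.47 to 2.71, LOC_Os01g50910.2 -1.35 to 2.71, LOC_Os02g44870.1 -0.56 to 1.46, LOC_Os03g20680.1 -1.15 to 1.19, LOC_Os03g45280.1 -0.78 to 1.09, LOC_Os03g53620.1 -1.40 to 0.38, LOC_Os04g49980.1 -1.99 to 2.41, LOC_Os05g46480.1 -1.35 to 1.32, LOC_Os05g46480.2 -1.73 to 1.41, LOC_Os05g46480.3 -1.11 to 1.39, LOC_Os05g50710.1 -0.0643 to 0.72, LOC_Os06g02040.1 -1.04 to 2.71, LOC_Os06g21910.1 -2.17 to 1.59, LOC_Os08g23870.1 -1.05 to 1.49, LOC_Os11g26570.1 -1.65 to 1.56, LOC_Os11g26750.1 -0.95 to 3.59, LOC_Os11g26760.1 -1.01 to 4.52, LOC_Os11g26780.1 -1.42 to 2.90, LOC_Os11g26790.1 -2.42 to 2.40. LOC_Os01g21250.1 stayed above 0 in the fits in which it was tested. Without a filter on low counts 1 transcript was called, LOC_Os11g26750.1 (log2 fold change 1.60, adjusted p = 0.0272, edgeR, background 0.822%), 1 lay above both controls (LOC_Os01g43530.1, background 15.9%) and 1 below (LOC_Os05g08920.1, background 16.0%), and with library totals 1 lay above (background 12.6%) and 1 below (background 9.08%). LOC_Os11g26780.1 turned to -2.46e-05 with relative log expression factors and to -0.0398 with DESeq2. With limma, LOC_Os04g49980.1 turned to 0.10, LOC_Os05g46480.3 to 0.0205 and LOC_Os08g23870.1 to 0.18. DESeq2 called 58 and limma 59 transcripts of the whole table, none of them LEA or dehydrin. Deviations of libraries with the same replicate number correlated at -0.36 over 27358 transcripts. The labels do not say whether the numbers pair the libraries, and with 2 libraries a temperature this correlation cannot decide it. With the replicate block 0 transcripts of the whole table were called, the median log2 fold change was 0.12, and LOC_Os04g49980.1, LOC_Os05g46480.3 and LOC_Os08g23870.1 turned to 0.11, 0.0252 and 0.19. A block with the numbers crossed was chosen after seeing the data and joins the libraries that were high together. Its calls are therefore no test of temperature. It called 828 of 27358 transcripts and 1 of the 34 LEA and dehydrin transcripts (LOC_Os11g26760.1, a dehydrin), and the 3 transcripts that turned with the replicate block turned to 0.0775, 0.00552 and 0.17. The causes were not tested.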
